A study of Xenopus tropicalis with 15 samples.

Results

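The cadherins, protocadherins, Eph receptors, ephrins and FLRT proteins are membrane proteins through which embryonic cells hold together or pull apart. Their genes were taken from the table of read counts by symbol, as all rows whose symbol begins with cdh, epha, ephb, efna, efnb or flrt and a digit, or with pcdh. This gave 68 of 28206 genes: 23 cadherins, 25 protocadherins, 11 Eph receptors, 6 ephrins and 3 FLRT genes. The counts come from poly(A) RNA of whole *X. tropicalis* gastrulae of the out-bred Nigerian strain, all wild type, at stage 11–11.5. Each of 15 libraries was made from 10 pooled embryos, and there were 5 libraries for each of 3 conditions. Untreated embryos received neither agent. UV embryos were irradiated for 2 min within 30 min of fertilisation, which ventralises the embryo, and LiCl embryos were exposed to 0.3 M LiCl at the 32-cell stage, which dorsalises it. The question for these genes was which of them differed in transcript level between dorsalised, untreated and ventralised gastrulae.

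Classical cadherins bind cells of one kind to each other through calcium-dependent contacts and connect to actin through catenins. In *Xenopus* the early embryo is held together by maternal C-cadherin (*cdh3*), while E-cadherin (*cdh1*) comes to mark the epidermal ectoderm and N-cadherin (*cdh2*) the neural plate. Protocadherins bind weakly, and paraxial protocadherin (PAPC, *pcdh8.2*) and axial protocadherin (AXPC, *pcdh1*) are known for their part in the convergent extension and sorting of mesoderm. Ephrins on one cell activate Eph receptors on its neighbour and make the cells repel each other, which keeps ectoderm and mesoderm apart at Brachet's cleft. FLRT3 acts with Rnd1 in *Xenopus* to lower C-cadherin at the cell surface.

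Total counts per library ranged from 11002771 to 18455126 in untreated, from 11890416 to 18254396 in UV and from 8412818 to 17737546 in LiCl embryos. Levels are given as CPM, counts scaled to library size by the TMM method. Whole embryos mix many cell types, and the summed RNA levels of region markers differed between some of the conditions and overlapped between others. The summed level of 8 epidermal genes was 3623–8001 CPM in untreated, 5877–9946 CPM in UV and 1600–3166 CPM in LiCl libraries, and that of 6 organiser genes was 997–1324, 409–856 and 2121–2517 CPM. For 8 neural plate genes the sums were 2720–3078, 1300–2360 and 2240–3745 CPM, and for 8 genes of ventral and paraxial mesoderm 1924–2859, 2369–4435 and 475–1313 CPM. No gene of these 4 lists was at 0, whereas blood and lens genes summed to at most 1.91 CPM in any library. Replicate 4 stood apart in untreated and LiCl embryos. It was the lowest of the 5 libraries in both conditions for 14 of the 38 members tested (36.8%, against 21.6% of all genes tested), among them *cdh1*, *cdh2*, *cdh3*, *cdh11*, *cdh26*, *epha4*, *pcdh1* and *pcdh8l*. Calls that changed without it in both conditions are given with the gene. LiCl and untreated libraries of 1 number deviated together. The main test takes no account of these pairs. Counts over the pairs are given beside it, and fits with the pairs as a block are given as alternatives.

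The transcripts of these families spanned a wide range of levels. Divided by exon length, *cdh3* was the most abundant member in untreated embryos at 149 ± 19.2 CPM per kb (mean ± SD, n = 5), and its 5 libraries all lay above those of *epha4*, which followed at 103 ± 12 CPM per kb. PAPC (*pcdh8.2*) came next at 82.9 ± 21.2 CPM per kb. It was followed by ephrin-A1 (*efna1*), a membrane-anchored ligand of EphA receptors, at 49.1 ± 12.35 CPM per kb over a gene model of only 0.411 kb. Ephrin-B2 (*efnb2*) and *flrt3* stood at 45.7 ± 8.4 and 37.2 ± 13.5 CPM per kb. Of 37 pairs of neighbours in this order, 36 had overlapping untreated libraries, so that only *cdh3* was set off from the member after it. E-cadherin (*cdh1*) reached 24.9 ± 12.3 and N-cadherin (*cdh2*) 9.53 ± 7.41 CPM per kb. The cadherins together summed to 220.2 ± 48.96 CPM per kb in untreated, 224 ± 18.7 in UV and 201 ± 39.1 in LiCl libraries, and the Eph receptors to 183 ± 23.7, 192 ± 28.4 and 235 ± 28.1 CPM per kb.

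**Figure D1:**
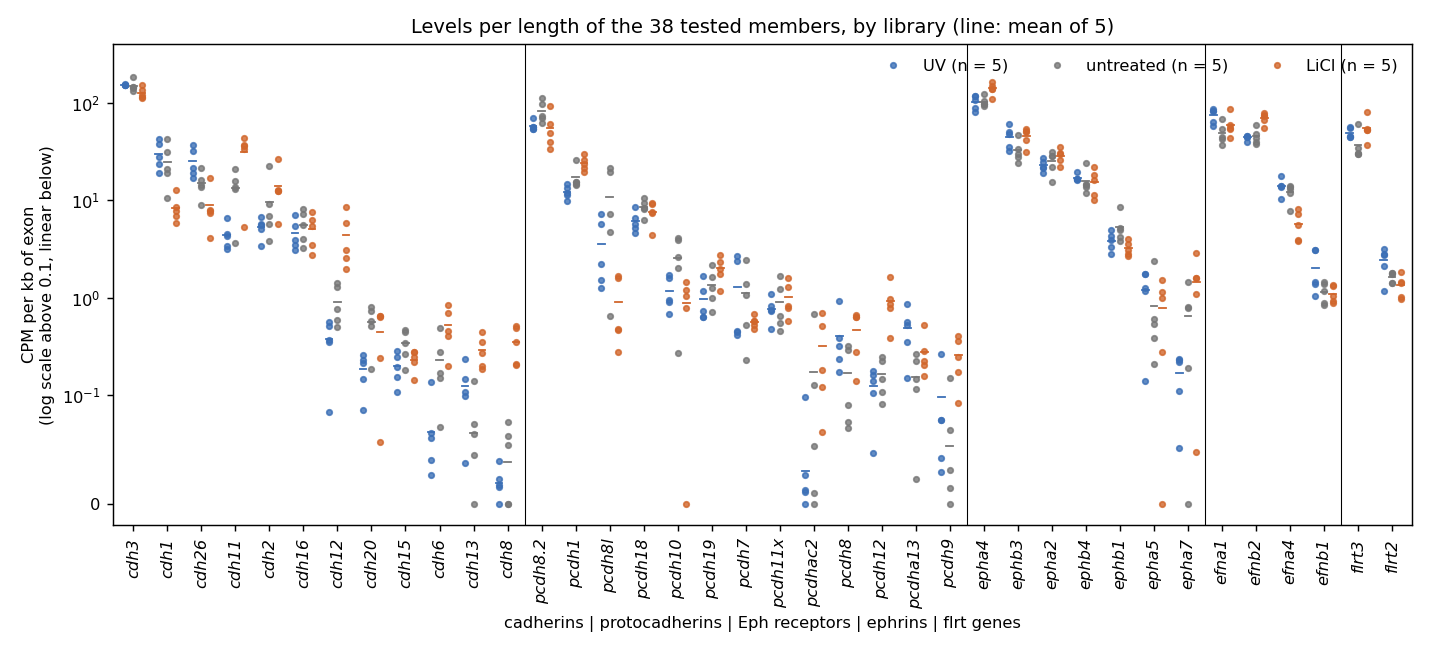
Level of each of the 38 tested members in each library, in CPM per kb of exon on an axis that is logarithmic above 0.1 and linear below it, grouped by family and ordered by the untreated mean. Each point is 1 of 5 libraries of UV (blue), untreated (grey) or LiCl embryos (orange) and each short line a mean. *cdh3*, *epha4* and *pcdh8.2* stand highest in untreated embryos, while *cdh8* and *cdh6* are low in every condition, with their LiCl points above their UV points.

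Of the 68 members, 38 had enough reads to be tested: 12 cadherins, 13 protocadherins, 7 Eph receptors, 4 ephrins and 2 FLRT genes. The filter asked for about 0.662 CPM in at least 5 libraries, and 6 members would not have met it without LiCl libraries: *cdh6*, *cdh8*, *cdh13*, *pcdh9*, *pcdh12* and *pcdhac2*. Of these, *cdh13* and *pcdh9* would not have met the filter without UV libraries either, nor *pcdhac2* without untreated libraries. A member that enters through the condition where it is high is more likely to show a difference. The counts and medians below therefore describe the tested members and are no support for a difference of the families. A member was counted as different at a fold change of at least 2 and a false discovery rate (FDR) of at most 0.01, by edgeR's quasi-likelihood test with adjustment over all 14041 genes tested. Between LiCl and UV embryos 8 of 38 (21.1%) passed, 5 higher and 3 lower in LiCl, where 6.1% of all genes passed (3.55% higher and 2.55% lower). Between LiCl and untreated embryos 4 of 38 (10.5%) passed, 3 higher and 1 lower, where 3.67% of all genes passed (2.25% higher and 1.42% lower). Between UV and untreated embryos edgeR's test passed 0 of 38, where 0.0712% of all genes passed (0.00712% higher and 0.0641% lower). DESeq2 passed 0 of the 61 members it tested there, where 0.525% of all genes passed. Of the 6 organiser genes edgeR passed 0 between UV and untreated embryos as well, although their median log2 fold change was −1.49. A member that did not pass there is therefore not shown to be unchanged. In that comparison 15 of 38 members (39.5%) had an unadjusted p under 0.05 by edgeR, as had 11.5% of all genes, and so had 21 of 38 (55.3%, against 27.6% of all genes) between LiCl and UV and 20 of 38 (52.6%, against 27.1%) between LiCl and untreated embryos. The median log2 fold change of the members was 0.21 for LiCl over UV, 0.23 for LiCl over untreated and −0.18 for UV over untreated, where that of all genes was 0.03, 0.01 and −0.02. The 3 comparisons share libraries, so their values are set side by side only.

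By family, 6 of 12 cadherins, 1 of 13 protocadherins, 0 of 7 Eph receptors, 1 of 4 ephrins and 0 of 2 FLRT genes passed between LiCl and UV embryos in edgeR's test, beside 6.1% of all genes. The unadjusted p was under 0.05 for 2 of those Eph receptors and 1 of those FLRT genes. DESeq2 passed 1 of the receptors, *epha7*, and 0 FLRT genes, beside 6.44% of all genes. Between LiCl and untreated embryos the genes that passed were 3 of 12 cadherins and 1 of 13 protocadherins, beside 3.67% of all genes. All LiCl libraries lay above all UV libraries for 6 of 38 members (15.8%, against 6.32% of all genes) and below them for 3 (7.89%, against 6.04%). Against untreated embryos all LiCl libraries lay above for 4 of 38 (10.5%, against 4.23% of all genes) and below for 0 (4.13% of all genes). For UV and untreated embryos the libraries of every tested member overlapped, where 1.03% of all genes lay apart upward and 2.19% downward. Taking LiCl and untreated libraries as pairs, 16 of 38 tested members (42.1%, against 16.5% of all genes) were higher in LiCl in all 5 pairs and 7 (18.4%, against 17.3%) were lower in all 5. All 6 members that needed LiCl libraries to meet the filter are among those 16. Of them, *cdh8*, *cdh13* and *pcdh12* are also among the members set above untreated libraries, and *cdh6*, *cdh8* and *pcdh12* among those set above UV libraries. These upward shares are therefore partly fixed by the filter and are no support for a difference of the families.

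**Figure D2:**
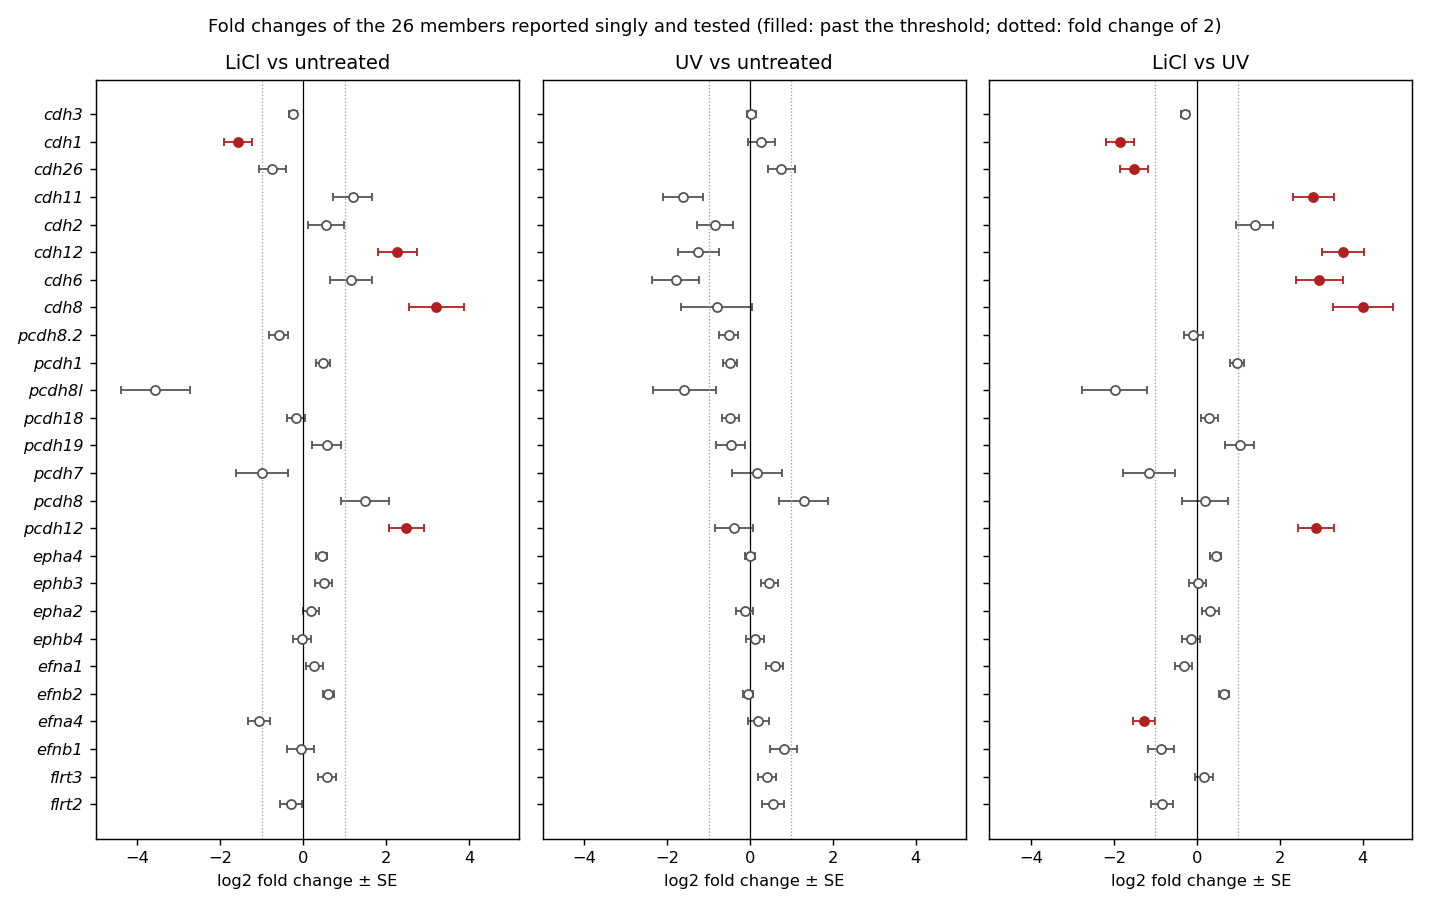
Log2 fold change with its SE (horizontal axis) of the 26 members reported singly and tested (vertical axis, by family), for LiCl over untreated, UV over untreated and LiCl over UV from left to right. Filled red points passed the threshold: 4 in the left, 0 in the middle and 8 in the right panel, with type II cadherins and *pcdh12* to the right of 0 and *cdh1*, *cdh26* and *efna4* to the left.

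E-cadherin transcripts were lower in dorsalised embryos, whereas C-cadherin changed little and N-cadherin varied widely between libraries. *cdh1* stood at 109, 73.8, 66.9, 36.8 and 149 CPM in untreated replicates 1 to 5, 97.7, 81.8, 66.5, 132 and 149 CPM in UV replicates 1 to 5 and 44.9, 24.1, 27.4, 20.5 and 29.8 CPM in LiCl replicates 1 to 5. All LiCl libraries lay below all UV libraries, and untreated replicate 4 alone of the untreated libraries fell among the LiCl libraries. *cdh1* was 3.60-fold lower in LiCl than in UV embryos (log2 fold change −1.85 ± 0.34 (FDR 0.00156)) and 2.97-fold lower than in untreated embryos (log2 fold change −1.57 ± 0.33 (FDR 0.00665)), and it was lower in LiCl in 5 of 5 pairs. The difference from UV passed without any 1 of the 15 libraries. That from untreated embryos passed with the pairs as a block (log2 fold change −1.50, FDR 0.00357), but without pairing its FDR rose above the threshold, to at most 0.0223, when LiCl replicate 2, 3, 4 or 5 or untreated replicate 1, 2, 3 or 5 was left out, with log2 fold changes between −1.77 and −1.29 over all 15 omissions. UV over untreated gave 0.28 ± 0.32 (FDR 0.851) and did not pass. The epidermal sum was lowest in the same untreated library as *cdh1*, replicate 4, at 3623 CPM, and its part in these differences was not tested. In whole embryos fewer cells of a type and less RNA per cell cannot be told apart.

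Maternal *cdh3* measured 778, 798, 784, 728 and 999.6 CPM in untreated replicates 1 to 5, 827, 832, 839.7, 838 and 852 CPM in UV replicates 1 to 5 and 732, 630.0, 663, 607 and 827 CPM in LiCl replicates 1 to 5. The UV libraries were almost level, with a coefficient of variation of 1.12%, the lowest of any tested member in any condition. LiCl libraries were all below the UV libraries, yet the difference was small, at −0.28 ± 0.10 (FDR 0.0707) for LiCl over UV and −0.24 ± 0.10 (FDR 0.118) for LiCl over untreated on the log2 scale, and neither passed. It was nonetheless lower in LiCl in 5 of 5 pairs. *cdh2* was found at 25.6, 33.9, 21.2, 14.2 and 83.8 CPM in untreated replicates 1 to 5, 12.6, 21.5, 18.9, 25.5 and 21.1 CPM in UV replicates 1 to 5 and 47.6, 46.4, 46.2, 21.3 and 99.6 CPM in LiCl replicates 1 to 5. Untreated replicate 5 and LiCl replicate 5 stood far above the other libraries of their conditions, and all 3 conditions overlapped. *cdh2* was higher in LiCl than in untreated embryos in 5 of 5 pairs, with a log2 fold change of 0.55 ± 0.44 (FDR 0.472), and LiCl over UV gave 1.39 ± 0.44 (FDR 0.0456). Neither passed with all libraries. With LiCl replicate 4 and untreated replicate 4 both left out, an omission chosen after the values were seen, *cdh2* passed between LiCl and UV embryos (log2 fold change 1.60, FDR 0.00803).

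Set against each other per exon length, the 3 genes kept C-cadherin in the majority everywhere. *cdh3* made up 82.2 ± 6.28% of their sum in untreated, 81.4 ± 4.33% in UV and 85.4 ± 3.42% in LiCl libraries (mean ± SD, n = 5). The share of *cdh1* was 13.0 ± 4.31% in untreated and 15.8 ± 4.22% in UV libraries but 5.61 ± 1.41% in LiCl libraries, and that of *cdh2* was 4.78 ± 2.55%, 2.81 ± 0.601% and 8.96 ± 3.46%. The ratio of *cdh1* to *cdh2* per length was 2.99 ± 1.03 in untreated, 5.84 ± 2.02 in UV and 0.709 ± 0.305 in LiCl libraries. Its highest LiCl library, at 1.03, lay below its lowest untreated library, at 1.91, so the ratio separated LiCl from both other conditions where *cdh2* alone did not. This ratio was formed after the values were seen and is given without a test. *cdh1* and *cdh3* are neighbours in the genome, on scaffold 4 of assembly v7.1 from 52516429 to 52549151 and from 52566581 to 52598665, both on the minus strand and 17429 bases apart.

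**Figure D3:**
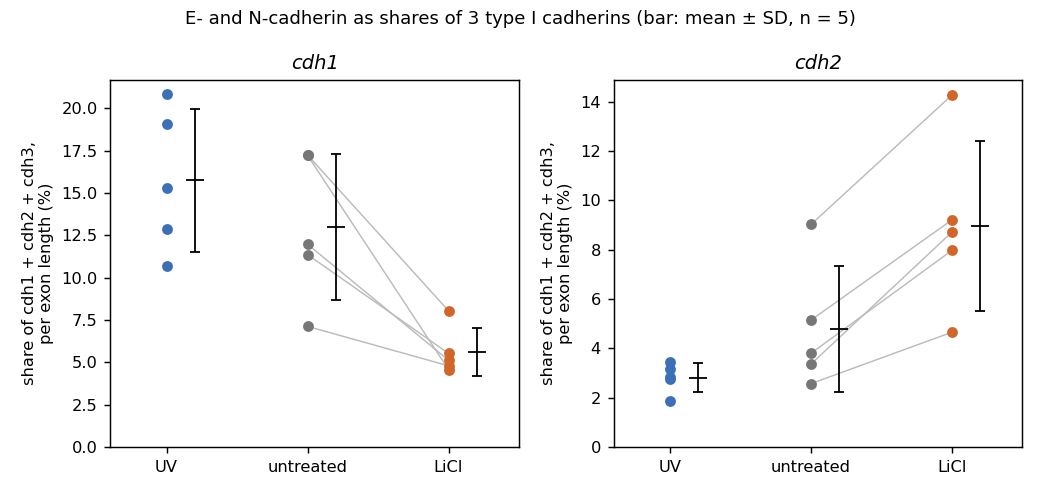
Share of *cdh1* (left) and *cdh2* (right) in the summed level per exon length of *cdh1*, *cdh2* and *cdh3*, in percent, for 5 libraries per condition, with bars for mean ± SD and grey lines joining untreated and LiCl libraries of 1 replicate number. The LiCl libraries of *cdh1* lie between 4.56% and 8.04% and the UV libraries between 10.7% and 20.9%, while *cdh2* is higher at the LiCl end of each grey line.

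Type II cadherins, which are known from neural crest and from neurons, made up 4 of the 5 members that were higher in LiCl than in UV embryos. Of 12 listed type II genes 5 were tested. Of these, 4 were higher in LiCl than in UV embryos (3.55% of all genes) and 2 higher than in untreated embryos (2.25%). However, *cdh6*, *cdh8* and the fifth member, the protocadherin *pcdh12*, would not have met the filter without LiCl libraries. The counts are thus partly fixed by the filter and are no support for a difference of the type. The division into types was made after values were seen. The most abundant type II gene was cadherin-11 (*cdh11*), a gene of the neural crest in *Xenopus*, at 54.1, 44.5, 46.5, 12.5 and 71.5 CPM in untreated replicates 1 to 5, 15.3, 22.5, 14.5, 10.7 and 11.6 CPM in UV replicates 1 to 5 and 147, 122, 125, 17.9 and 113 CPM in LiCl replicates 1 to 5. LiCl replicate 4 lay within the UV range, and the other LiCl libraries were above every untreated and every UV library. *cdh11* was 7.02-fold higher in LiCl than in UV embryos (log2 fold change 2.81 ± 0.49 (FDR 0.00116)), and this passed without any 1 library. LiCl over untreated gave 1.2 ± 0.46 (FDR 0.103) and did not pass, but the fit of these 10 libraries with the pairs as a block passed (log2 fold change 1.11, FDR 0.00159). With the pairs as a block over all libraries it did not pass. UV over untreated gave −1.62 ± 0.47 (FDR 0.166). With replicate 4 of LiCl and of untreated embryos both left out, *cdh11* passed in all 3 comparisons, at 1.25 for LiCl over untreated (FDR 0.00184) and −1.84 for UV over untreated (FDR 0.000631). LiCl replicate 4 stood apart from the other LiCl libraries in marker sums as well, with 1600 CPM for the epidermal genes (the others at least 2440 CPM) and 475 CPM for ventral and paraxial mesoderm (at least 762 CPM). Its sum of the pan-mesoderm genes *t*, *eomes*, *fgf8* and *vegt* was 2491 CPM (at most 2267 CPM), of which *vegt* alone gave 1454 CPM (at most 1032 CPM). *fgf8* was lowest in that library, and *t* and *eomes* lay within the range of the others. The neural plate sum of LiCl replicate 4 was 3745 CPM (at most 3043 CPM), of which *gmnn* alone gave 1708 CPM (at most 1125 CPM). The neural plate genes did not all go one way: *otx2*, *zic1* and *sox3* were also highest in that library, but *zic2* and *ncam1* were lowest. Its organiser sum of 2338 CPM was within the range of the others, but the organiser genes also went both ways. *gsc*, at 569 CPM (at most 240 CPM), and *nog* were highest in that library, and *foxa4* and *lhx1* were lowest. The part of these sums in the *cdh11* values was not tested.

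Other genes of this type were present at low level. Cadherin-12 (*cdh12*), a neuronal cadherin in mammals, had 1.2, 2.67, 2.90, 1.58 and 1.02 CPM in untreated replicates 1 to 5, 1.17, 1.04, 0.749, 0.726 and 0.174 CPM in UV replicates 1 to 5 and 5.29, 17.4, 12.1, 4.03 and 6.30 CPM in LiCl replicates 1 to 5. Its LiCl libraries did not overlap with either other condition. *cdh12* was 11.5-fold higher in LiCl than in UV (log2 fold change 3.52 ± 0.51 (FDR 0.000296)) and 4.82-fold higher than in untreated embryos (log2 fold change 2.27 ± 0.47 (FDR 0.00602)). The first passed in every alternative run. The second was lost, with an FDR of at most 0.0205 and log2 fold changes of 1.90 to 2.46, without LiCl replicate 2 or 3 or untreated replicate 1, 2, 4 or 5. Cadherin-8 (*cdh8*) showed 0, 0.261, 0.187, 0 and 0.218 CPM in untreated replicates 1 to 5, 0.137, 0.0802, 0.0535, 0.0605 and 0 CPM in UV replicates 1 to 5 and 0.712, 1.79, 1.69, 1.21 and 0.718 CPM in LiCl replicates 1 to 5. LiCl libraries again stood apart from both other conditions, whose counts were close to the floor. No UV library held more than 2 reads of it, so that *cdh8* was at least 5.84-fold higher in LiCl than in UV embryos when UV is set to the floor of 3 counts per library, and at least 5.16-fold without LiCl replicate 2, its highest library. edgeR's FDR for this difference was 0.00136, but *cdh8* had reached the tested set through its LiCl libraries alone, so that this call is no separate support for a difference, and under a filter of at least 1 CPM in 5 libraries it was not tested. Against untreated embryos the log2 fold change was 3.21 ± 0.66 (FDR 0.00582), and the FDR rose to at most 0.0188, at 2.84 to 3.67, without LiCl replicate 2 or 3 or untreated replicate 1 or 3. The call against untreated embryos has the same limit. No untreated library of *cdh8* reached the level of the filter or held more than 4 reads, so it is no separate support either.

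Cadherin-6 (*cdh6*), known from neural crest and kidney in vertebrates, had 0.600, 1.11, 0.281, 0.683 and 1.96 CPM in untreated replicates 1 to 5, 0.550, 0.160, 0.107, 0.242 and 0.260 CPM in UV replicates 1 to 5 and 1.83, 3.36, 1.63, 0.806 and 2.82 CPM in LiCl replicates 1 to 5. All LiCl libraries lay above all UV libraries and overlapped with untreated libraries. *cdh6* was 7.74-fold higher in LiCl than in UV embryos (log2 fold change 2.95 ± 0.56 (FDR 0.00216)) and passed without any 1 library. No UV library of *cdh6* reached the level of the filter, which it would not have met without its LiCl libraries. This call is therefore no separate support for a difference. LiCl over untreated gave 1.16 ± 0.50 (FDR 0.145) and UV over untreated −1.80 ± 0.57 (FDR 0.201), and neither passed. The fifth tested gene of this type, *cdh20*, gave 1.26 ± 0.55 (FDR 0.143) for LiCl over UV and passed with replicate 4 of LiCl and untreated embryos left out (log2 fold change 1.56, FDR 0.00817). Of the neural plate and organiser genes, 4 of 8 and 5 of 6 were likewise higher in LiCl than in UV embryos (3.55% of all genes). Between LiCl and untreated embryos 0 of 8 and 0 of 6 passed as higher (2.25% of all genes), with median log2 fold changes of 0.18 and 1.05. All organiser genes but *gsc* nonetheless had every LiCl library above every untreated library (4.23% of all genes), and no neural plate gene did. A gene that did not pass there is therefore not shown to be unchanged. The part of these genes in the type II values was not tested.

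**Figure D4:**
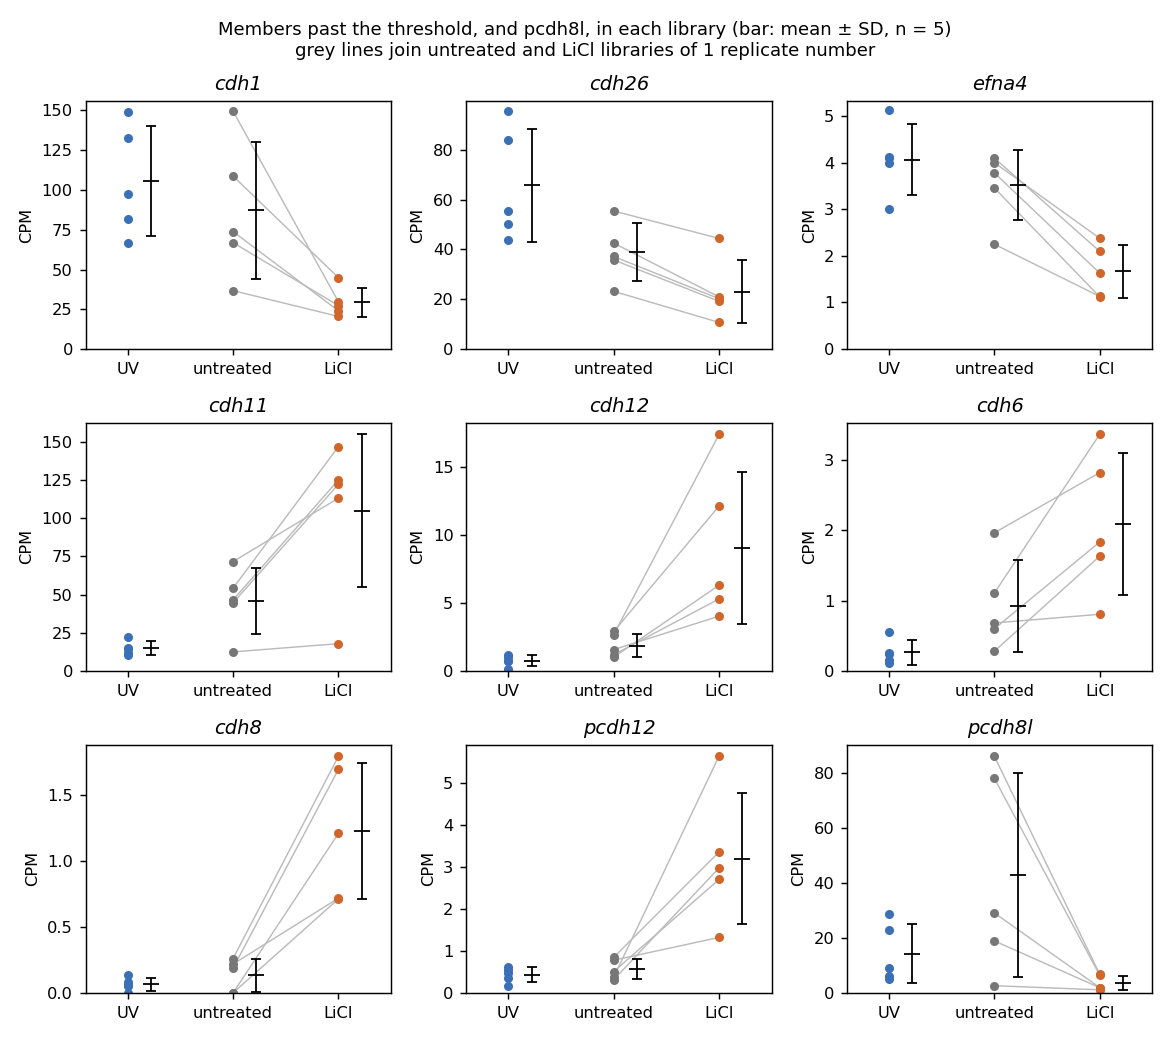
Level in CPM (vertical axes from 0) of the 8 members that passed in at least 1 comparison and of *pcdh8l*, in 5 UV, 5 untreated and 5 LiCl libraries, with bars for mean ± SD and grey lines joining untreated and LiCl libraries of 1 replicate number. *cdh12*, *cdh8* and *pcdh12* have LiCl libraries above all others, LiCl replicate 4 of *cdh11* lies alone at 17.9 CPM, and *pcdh8l* is below its untreated partner in all 5 pairs.

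Among the other cadherins *cdh26*, an epithelial cadherin in mammals, was also lower in LiCl than in UV embryos. It measured 37.2, 42.6, 35.8, 23.2 and 55.4 CPM in untreated replicates 1 to 5, 44.0, 55.2, 50.2, 83.9 and 95.4 CPM in UV replicates 1 to 5 and 20.3, 21.0, 19.2, 10.7 and 44.4 CPM in LiCl replicates 1 to 5. LiCl replicate 5 alone of the LiCl libraries reached the UV range. *cdh26* was 2.84-fold lower in LiCl than in UV embryos (log2 fold change −1.50 ± 0.34 (FDR 0.0065)). This call was lost, with an FDR of at most 0.0205 and log2 fold changes of −1.89 to −1.32 over all omissions, without LiCl replicate 1, 2 or 3 or UV replicate 2, 4 or 5. It was lower in LiCl than in untreated embryos in 5 of 5 pairs, at −0.74 ± 0.33 (FDR 0.16), which did not pass. UV replicates 4 and 5, where *cdh26* was highest, also had the highest epidermal sums, 9507 and 9946 CPM. T-cadherin (*cdh13*), which lacks a cytoplasmic tail, did not overlap between LiCl and untreated libraries but did not pass in edgeR's test (2.06 ± 0.56 (FDR 0.0231)). DESeq2 passed it (FDR 0.00544), and it is named after its values were seen. Without LiCl libraries *cdh13* would not have met the filter, so the lack of overlap is no separate support for a difference. The remaining tested cadherins, *cdh15* and *cdh16*, had log2 fold changes between −0.78 and 0.23 in the 3 comparisons. *cdh15* shares exon sequence with *slc22a31* on the opposite strand, and reads from the shared stretch cannot be told apart.

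Of 13 tested protocadherins 1 (7.69%) passed between LiCl and UV and between LiCl and untreated embryos, where 6.1% and 3.67% of all genes did. A count of 1 is no result about the family. *pcdh12*, an endothelial protocadherin in mammals, was at 0.780, 0.847, 0.375, 0.315 and 0.509 CPM in untreated replicates 1 to 5, 0.550, 0.160, 0.482, 0.363 and 0.608 CPM in UV replicates 1 to 5 and 1.32, 3.36, 5.65, 2.98 and 2.71 CPM in LiCl replicates 1 to 5. Every LiCl library lay above every library of the other conditions. *pcdh12* was 7.31-fold higher in LiCl than in UV (log2 fold change 2.87 ± 0.44 (FDR 0.000406)) and 5.60-fold higher than in untreated embryos (log2 fold change 2.48 ± 0.42 (FDR 0.00183)), and both calls held without any 1 library. Without its LiCl libraries, however, *pcdh12* would not have met the filter. These calls and the lack of overlap are therefore no separate support for a difference. The ratio within pairs ran from 1.70 to 15.1. AXPC (*pcdh1*), a protocadherin of axial mesoderm in *Xenopus*, was far more abundant, at 115, 116, 109.8, 106 and 196 CPM in untreated replicates 1 to 5, 85.4, 89.1, 73.9, 109.9 and 100.4 CPM in UV replicates 1 to 5 and 174, 194, 221, 146 and 160.5 CPM in LiCl replicates 1 to 5. LiCl libraries all lay above the UV libraries, and untreated replicate 5 was the highest untreated library by a wide margin. LiCl over UV gave 0.97 ± 0.18 (FDR 0.0015), past the FDR but just under a fold of 2, and the fold reached 2 without LiCl replicate 4 or 5 or UV replicate 4, at log2 values of up to 1.04. It passed as well with replicate 4 of LiCl and untreated embryos both left out (log2 fold change 1.04, FDR 0.000649). LiCl over untreated gave 0.48 ± 0.17 (FDR 0.0813), higher in 4 of 5 pairs. The organiser sum moved in the same order, and its part in the *pcdh1* values was not tested.

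Neither PAPC nor its relatives passed as higher in LiCl embryos. PAPC (*pcdh8.2*), a protocadherin of paraxial mesoderm, was measured at 302, 400.4, 257, 285 and 464 CPM in untreated replicates 1 to 5, 222, 233, 284, 224 and 235 CPM in UV replicates 1 to 5 and 204, 165, 138, 377 and 248 CPM in LiCl replicates 1 to 5. LiCl replicate 4 was the highest LiCl library, the reverse of its place in *cdh11* and *pcdh1*, and all conditions overlapped. LiCl over untreated gave −0.59 ± 0.23 (FDR 0.103), UV over untreated −0.51 ± 0.23 (FDR 0.411) and LiCl over UV −0.08 ± 0.23 (FDR 0.881), and none passed. It was lower in LiCl in 4 of 5 pairs. With replicate 4 of LiCl and untreated embryos both left out, an omission chosen after the values were seen, LiCl over untreated gave −0.89 (FDR 0.0064), past the FDR but below the fold of 2. UV over untreated then gave −0.55 (FDR 0.0957) and LiCl over UV −0.34 (FDR 0.2). The related gene *pcdh8l*, on scaffold 7, was at 29.1, 78.1, 18.9, 2.63 and 86.1 CPM in untreated replicates 1 to 5, 5.09, 8.90, 6.05, 28.7 and 22.9 CPM in UV replicates 1 to 5 and 1.93, 6.39, 1.88, 1.13 and 6.74 CPM in LiCl replicates 1 to 5. Untreated replicates 2 and 5 were highest, untreated replicate 4 fell within the LiCl range, and LiCl was below untreated in 5 of 5 pairs. LiCl over untreated gave −3.57 ± 0.83 (FDR 0.0106), just short of the threshold, and it passed with the pairs as a block (log2 fold change −3.52, FDR 0.0074 over all libraries, and −3.34, FDR 0.000298 over the 10 libraries compared) and without untreated replicate 4 (FDR 0.00226). DESeq2 passed *pcdh8l* between LiCl and untreated embryos without pairing (log2 fold change −3.56, FDR 2.05e-05). With replicate 4 of LiCl and untreated embryos both left out, LiCl over untreated passed in edgeR's test too (log2 fold change −3.61, FDR 0.00504). LiCl over UV gave −1.98 ± 0.79 (FDR 0.107). The third gene, *pcdh8*, lies on scaffold 2 as does PAPC and had between 0.360 and 4.81 CPM over the 15 libraries, with no comparison past the threshold. It was nonetheless higher in LiCl than in untreated embryos in 4 of 5 pairs. With replicate 4 of both left out, LiCl over untreated gave 1.59 (FDR 0.0814) for *pcdh8*. PAPC made up 89.9 ± 6.54% of the 3 per exon length in untreated, 93.5 ± 4.06% in UV and 97.2 ± 1.81% in LiCl libraries. How reads shared between these related genes were counted was not examined.

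NF-protocadherin (*pcdh7*), an ectodermal adhesion molecule in *Xenopus*, was at 5.34, 6.84, 2.62, 1.16 and 12.2 CPM in untreated replicates 1 to 5, 2.20, 2.24, 2.09, 12 and 13.2 CPM in UV replicates 1 to 5 and 2.65, 3.36, 2.38, 2.90 and 2.87 CPM in LiCl replicates 1 to 5. UV replicates 4 and 5 and untreated replicate 5 were high and all conditions overlapped, and LiCl over UV gave −1.16 ± 0.63 (FDR 0.255). *pcdh18* ranged from 26.8 to 63.6 CPM over all libraries and was lower in LiCl than in untreated embryos in 5 of 5 pairs, by little (−0.17 ± 0.21 (FDR 0.68)). *pcdh19*, which acts with N-cadherin in zebrafish, ranged from 1.65 to 7.28 CPM and gave 1.03 ± 0.36 (FDR 0.0653) for LiCl over UV. Of 10 protocadherins of the clustered pcdha and pcdhg kinds 2 were tested, none passed and 3 had no read in any library. *pcdh10*, named after its values were seen, passed between LiCl and untreated embryos with replicate 4 of both left out (log2 fold change −1.46, FDR 0.007) and not with all libraries. The unadjusted p in edgeR's test was under 0.05 for 5 of 13 protocadherins in LiCl against UV (38.5%, against 27.6% of all genes), 6 in LiCl against untreated (46.2%, against 27.1%) and 5 in UV against untreated embryos (38.5%, against 11.5%).

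Among the 7 tested Eph receptors edgeR passed 0 in any comparison. The unadjusted p was under 0.05 for 3 in LiCl against untreated (42.9%, against 27.1% of all genes), 1 in UV against untreated (14.3%, against 11.5%) and 2 in LiCl against UV embryos (28.6%, against 27.6%), and DESeq2 passed *epha7* alone. EphA4 (*epha4*), which takes part in the separation of ectoderm and mesoderm in *Xenopus*, was at 565, 554, 593, 533 and 708 CPM in untreated replicates 1 to 5, 612, 672, 682, 465 and 513 CPM in UV replicates 1 to 5 and 949.6, 795, 849.5, 634 and 801 CPM in LiCl replicates 1 to 5. LiCl libraries were mostly the highest and overlapped with both other conditions at LiCl replicate 4. It was higher in LiCl than in untreated embryos in 5 of 5 pairs, and log2 fold changes of 0.45 ± 0.13 (FDR 0.0297) over untreated and 0.45 ± 0.13 (FDR 0.0244) over UV fell short of the threshold. EphB4 (*ephb4*), also active at that boundary, was at 45.1, 44.0, 41.1, 35.9 and 73.5 CPM in untreated replicates 1 to 5, 59.0, 50.3, 49.2, 50.4 and 50.4 CPM in UV replicates 1 to 5 and 49.5, 54.7, 30.8, 34.7 and 67.0 CPM in LiCl replicates 1 to 5. The conditions overlapped throughout, with log2 fold changes of −0.02 ± 0.22 (FDR 0.973) for LiCl over untreated and −0.13 ± 0.22 (FDR 0.773) for LiCl over UV.

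EphB3 (*ephb3*) measured 128, 105, 121, 205 and 148 CPM in untreated replicates 1 to 5, 261, 216, 208, 139 and 155 CPM in UV replicates 1 to 5 and 233, 179, 137, 226 and 220.1 CPM in LiCl replicates 1 to 5. Untreated replicate 4 was the highest untreated library, and both treatments overlapped with the untreated range. UV over untreated gave 0.47 ± 0.21 (FDR 0.398) and LiCl over untreated 0.49 ± 0.21 (FDR 0.133), with LiCl higher in 5 of 5 pairs. Its exons overlap with those of another gene model on the opposite strand, and reads from the shared stretch cannot be told apart. EphA2 (*epha2*), whose gene model is only 0.828 kb long, ranged from 12.6 to 29.1 CPM, with log2 fold changes from −0.13 to 0.33. Receptors outside this selection are named after their values were seen. *ephb1* gave −0.73 ± 0.22 (FDR 0.0411) for LiCl over untreated, and *epha7*, known from the neural tube, gave 3.05 ± 0.94 (FDR 0.0384) for LiCl over UV, from at most 0.802 CPM in UV and 0.161 to 9.75 CPM in LiCl libraries. DESeq2 passed it (FDR 0.00446), and edgeR did so with replicate 4 of LiCl and untreated embryos left out (log2 fold change 3.37, FDR 0.000399).

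The ephrins differed among themselves in direction. Ephrin-B2 (*efnb2*), a partner of EphB4 at the boundary, measured 178, 188, 204, 278 and 227 CPM in untreated replicates 1 to 5, 215, 188, 209, 209 and 215 CPM in UV replicates 1 to 5 and 355, 346, 309.6, 369 and 259.8 CPM in LiCl replicates 1 to 5. All LiCl libraries lay above all UV libraries, while untreated replicate 4 reached into the LiCl range. *efnb2* was 1.58-fold higher in LiCl than in UV embryos (log2 fold change 0.66 ± 0.12 (FDR 0.00181)) and 1.53-fold higher than in untreated embryos (log2 fold change 0.61 ± 0.12 (FDR 0.00515)), past the FDR but below the fold of 2, and was higher in 5 of 5 pairs. UV over untreated gave −0.05 ± 0.12 (FDR 0.939). Ephrin-A4 (*efna4*), a lipid-anchored ligand of EphA receptors, went the other way at low level, with 3.78, 3.45, 2.25, 4.10 and 4.00 CPM in untreated replicates 1 to 5, 3.99, 4.09, 3.00, 4.11 and 5.12 CPM in UV replicates 1 to 5 and 1.63, 1.12, 1.13, 2.09 and 2.38 CPM in LiCl replicates 1 to 5. LiCl and UV libraries did not overlap, and LiCl replicate 5 alone exceeded the lowest untreated library. *efna4* was 2.40-fold lower in LiCl than in UV embryos (log2 fold change −1.27 ± 0.27 (FDR 0.00455)), a call lost without LiCl replicate 1, 2 or 3 or UV replicate 2, 4 or 5, where the FDR was at most 0.0152 and the log2 fold change lay between −1.44 and −1.15 over all omissions. LiCl over untreated gave −1.06 ± 0.27 (FDR 0.0167), lower in 5 of 5 pairs, and it passed with the pairs as a block over all libraries (log2 fold change −1.08, FDR 0.00388) but not over the 10 libraries compared (FDR 0.0111). DESeq2 passed *efna4* there without pairing (log2 fold change −1.07, FDR 0.00149). Its gene model is 0.291 kb long and the epidermal sum was lower in LiCl as well, whose part was not tested.

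Ephrin-A1 (*efna1*) stood at 18.4, 17.3, 15.0, 22.2 and 28.0 CPM in untreated replicates 1 to 5, 33.5, 25.9, 23.9, 35.5 and 33.5 CPM in UV replicates 1 to 5 and 22.7, 24.4, 17.8, 21.8 and 35.1 CPM in LiCl replicates 1 to 5. UV libraries were mostly the highest and all conditions overlapped, with a log2 fold change of 0.59 ± 0.21 (FDR 0.252) for UV over untreated. Ephrin-B1 (*efnb1*) was low, at 1.56, 2.54, 2.15, 1.63 and 2.69 CPM in untreated replicates 1 to 5, 2.68, 1.92, 2.57, 5.63 and 5.73 CPM in UV replicates 1 to 5 and 1.93, 2.47, 2.45, 1.61 and 1.71 CPM in LiCl replicates 1 to 5. UV replicates 4 and 5 were above all other libraries, and the conditions overlapped. LiCl over UV gave −0.86 ± 0.32 (FDR 0.0887) and UV over untreated 0.81 ± 0.32 (FDR 0.342), and neither passed.

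The FLRT genes did not pass in any comparison. *flrt3* measured 136, 133, 138, 276 and 156 CPM in untreated replicates 1 to 5, 253, 250.4, 207, 200.5 and 203 CPM in UV replicates 1 to 5 and 238, 239.7, 168, 363 and 245 CPM in LiCl replicates 1 to 5. Untreated replicate 4 lay far above the other untreated libraries and LiCl replicate 4 above the other LiCl libraries, and the conditions overlapped. *flrt3* was higher in LiCl than in untreated embryos in 5 of 5 pairs (log2 fold change 0.58 ± 0.22 (FDR 0.088)), and UV over untreated gave 0.41 ± 0.21 (FDR 0.503). With replicate 4 of LiCl and untreated embryos both left out, an omission chosen after the values were seen, edgeR gave 0.69 (FDR 0.00329) for LiCl and 0.68 (FDR 0.00877) for UV over untreated. Both were past the FDR but below the fold of 2. A gene model on the opposite strand overlaps with its exons, so that reads from the shared stretch cannot be told apart from those of that model. *flrt2* was at 6.06, 5.99, 4.78, 4.78 and 5.81 CPM in untreated replicates 1 to 5, 10.7, 9.30, 3.91, 9.38 and 7.12 CPM in UV replicates 1 to 5 and 4.88, 4.71, 3.26, 3.38 and 6.19 CPM in LiCl replicates 1 to 5. UV libraries, replicate 3 apart, lay above all other libraries, and LiCl over UV gave −0.85 ± 0.26 (FDR 0.0393), which passed without UV replicate 3, at −1.03. *flrt1* had 34 reads over the 15 libraries and was not tested.

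The 30 members without a test had few or no reads. For 7 of them no library held a read: *efna2*, *epha6*, *epha8*, *pcdh15*, *pcdha5*, *pcdhga11* and *pcdhgb5*. Another 15 had up to 30 reads over all libraries and 8 had more, the most being 128 for *efna5*. Among them, and named after their values were seen, *cdh24* had 51 reads in LiCl, 3 in UV and 9 in untreated libraries, *cdh17* had 33, 2 and 6, and *cdh22* had 50, 14 and 6. These counts are not scaled to library size, and they lay below the filter for edgeR's test. Without that filter edgeR passed *cdh24* between LiCl and UV embryos (FDR 0.00344). DESeq2, run on the unfiltered table, passed *cdh24* (FDR 0.00081) and *cdh17* (FDR 0.00577) between LiCl and UV embryos and *cdh22* between LiCl and untreated embryos (FDR 0.00885). With so few reads in UV and untreated libraries no size is given for these differences.

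A few of the genes that work with these families also passed. Of all genes, 6.1% passed between LiCl and UV embryos and 3.67% between LiCl and untreated embryos. The lists are small, so that 1 gene in a list of 12 or 15 is no result about that list. Among 12 tested catenins and junction adaptors plakoglobin (*jup*), which links cadherins to the cytoskeleton, was lower in LiCl than in UV embryos (log2 fold change −1.10, FDR 0.000744), and the median of the list was −0.14. Of 15 atypical members of the cadherin superfamily *ret*, the receptor of GDNF ligands, was higher in LiCl than in UV (3.57) and than in untreated embryos (3.15). Of 10 tested FLRT partners and regulators of surface cadherin 0 passed by edgeR in any comparison, 4 had an unadjusted p under 0.05 between LiCl and UV embryos (40%, against 27.6% of all genes), and DESeq2 passed 2 there. Of these, *rnd1*, the partner of FLRT3, did not overlap between LiCl and UV libraries, and was lower in LiCl at an FDR of 0.000815 with the fold just under 2.

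Among 22 tested genes of Eph and ephrin signalling *dvl3*, a Dishevelled adaptor, was lower in LiCl than in UV embryos (−1.72), and the kinase *fyn* (1.1) and the adaptor *nck2* (1.23) were higher, with a list median of −0.09. Between LiCl and untreated embryos 0 of the 22 passed by edgeR, 8 had an unadjusted p under 0.05 (36.4%, against 27.1% of all genes) and DESeq2 passed 2, *dvl1* and *dvl3*. Among 19 genes of convergent extension and tissue separation *fzd8*, a Wnt receptor, was higher in LiCl than in UV embryos (2.42) and lower in UV than in untreated embryos (−1.74). The ligands *pdgfa* (−1.49) and *wnt5b* (−1.09) and the transcription factor *xbp1* (−1.67) were lower in LiCl than in UV embryos, and *pdgfa* (−1.37) and *xbp1* (−1.46) also than in untreated embryos. Of 11 other adhesion genes the nectin *pvrl4* was lower in LiCl than in UV (−3.11) and than in untreated embryos (−2.88), and the claudin *cldn4* was lower in LiCl than in UV embryos (−1.17). All these values are log2 fold changes of edgeR. Between LiCl and UV embryos 3 of 22, 4 of 19 and 2 of 11 genes of these lists passed, beside 6.1% of all genes. Between LiCl and untreated embryos it was 0 of 22, 2 of 19 and 1 of 11, beside 3.67%, and *fzd8* stood beside 0.0712% between UV and untreated embryos. The lists were not tested as sets.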

How the data were processed

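RNA-seq libraries were made from poly(A) RNA of 10 embryos each with a TruSeq RNA version 2 kit, which does not mark strand. The deposited table holds whole-number read counts per gene, which the authors did not normalise. Per the methods and labels, paired-end reads of 50 bases were aligned with TopHat2 (the submitters' processing notes list 2.0.10 and 2.1.1) to gene models v7.2 of assembly v7.1, with no search for further junctions; HTSeq-count then counted them in intersection-nonempty mode. The HTSeq version is not given in the sources used here. Positions and exon lengths come from the deposited gene models. No column was left out.

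The analysis used edgeR 4.0.16 in R 4.3.3. After filterByExpr, 14041 of 28206 genes were normalised by TMM. A robust quasi-likelihood model with 1 term, condition, was fitted to the 15 libraries together, and Benjamini-Hochberg adjustment ran over every tested gene. A gene passed at a 2-fold change or more with an FDR no higher than 0.01; fold changes used a prior count of 0.125. The floor of a gene was 3 counts in a library. The reads carry no molecular identifiers, so floors cover counting error only. Per-length levels use the union of exons. The fits were tested on simulated data. DESeq2 1.42.0, other normalisations, filters, thresholds and sample sets and the omission of each library were alternatives.

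The members reported singly are those past the threshold in any comparison, the 3 highest per length in untreated embryos in each family, and those with known gastrula roles. The members and all lists were chosen with earlier results of these data known. The methods describe 5 independent experiments. Deviations from the condition mean (log2 CPM, prior count 2) correlated between LiCl and untreated libraries of 1 number at 0.338 to 0.731, each above the minimum of 0.1, which was taken as pairing. LiCl replicate 3, however, correlated slightly more with untreated replicate 2 (0.371) than with untreated replicate 3 (0.338). UV libraries did not pair throughout, since UV replicate 4 correlated at −0.254 with untreated replicate 4 and −0.12 with LiCl replicate 4.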

Additional observations from a re-analysis of the deposited data

Results flagged for a closer look

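Within a condition, 10 of 78 groups of 5 libraries held a library whose gap to its nearest neighbour took up more than 0.71 of the group's range, where chance alone marks about 1 in 20 groups. In untreated embryos replicate 5 was far above the other libraries for *cdh2* (83.8 CPM, the others at most 33.9), *cdh3* (999.6 CPM, at most 798), *ephb4* (73.5 CPM, at most 45.1) and *pcdh1* (196 CPM, at most 116). Untreated replicate 4 was far above the others for *flrt3* (276 CPM, at most 156). Among LiCl libraries replicate 4 was far below the others for *cdh11* (17.9 CPM, the others at least 113).

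In UV embryos *efnb2* was low in replicate 2 (188 CPM, the others at least 209), *ephb4* and *pcdh8* were high in replicate 1 (59.0 CPM against at most 50.4, and 4.81 CPM against at most 2.00), and *pcdh8.2* was high in replicate 3 (284 CPM against at most 235). The spread of *efnb2* and *ephb4* in UV embryos was narrow, so these gaps are small in absolute terms.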

How the results depend on the processing

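Under all alternatives no member that passed reversed its direction, and of the 12 passing results 3 passed in every alternative in which they were tested. Of the 66 that did not pass, 10 changed sign, all with log2 fold changes within 0.197 of 0. Against 4 of 38 members between LiCl and untreated embryos (3.67% of all genes), DESeq2 passed 8 of the 61 it tested (4.83% of all genes), an FDR of at most 0.05 without a fold limit 10 (13.5%), a test against a fold of 2 (glmTreat) 0 (0.335%; 7 members at an unadjusted p under 0.05), and a fit of only the 2 conditions 1 (1.82%). Against 8 between LiCl and UV embryos (6.1%) these gave 11 (6.44%), 14 (15.2%), 3 (1.76%) and 5 (5.61%). Omission of each library in turn gave 1 to 4 members for LiCl against untreated (1 without LiCl replicate 2 or 3 or untreated replicate 1, 2 without untreated replicate 2, 3 or 5), 6 to 10 for LiCl against UV, and 0 for UV against untreated. With replicate 4 of LiCl and untreated embryos both left out, chosen after seeing the data, 7, 1 and 12 members passed for LiCl against untreated, UV against untreated and LiCl against UV, where 5.25%, 0.913% and 9.5% of all genes did; the 1 was *cdh11*.

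With the replicate number as a block, 6, 0 and 8 members passed over all libraries (5.26%, 0.328% and 7.74% of all genes) and 6, 0 and 4 over the 2 conditions compared (6.69%, 0% and 4.52%), in the same order. Between LiCl and UV embryos, where the numbers do not pair throughout, the fit of 2 conditions lost *cdh6* (FDR 0.0102), *cdh26* (0.0153) and *efna4* (0.0135), and *cdh8* did not pass its filter. The cause of these shifts was not tested. The longest transcript in place of the exon union exchanged only *epha2* and *cdh1* in the order of levels. Depth limited members below about 1 CPM, where a library held a few reads.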

Other observations

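UV replicates 4 and 5 were the highest UV libraries for *cdh1*, *cdh26*, *pcdh7*, *pcdh8l* and *efnb1*, at 12 and 13.2 CPM for *pcdh7* against at most 2.24 CPM in the other UV libraries, and at 28.7 and 22.9 CPM for *pcdh8l* against at most 8.90 CPM. Replicate 5 was the highest library in both untreated and LiCl embryos for 8 of 38 tested members (21.1%, against 12.1% of all genes). Replicate 4 was the highest in both for *efnb2*, *flrt3* and *pcdh11x*, 7.89% of the members against 24.5% of all genes. The median coefficient of variation of the tested members was 42.3% in untreated, 34.8% in UV and 38.3% in LiCl libraries.

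Of the listed members 10 cadherins lie on scaffold 6 and 8 on scaffold 4 of assembly v7.1, and 12 protocadherins on scaffold 3, of which 4 were tested.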
